A study of Mus musculus with 4 samples.

Results

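Chromatin accessibility was described around 10 genes of the serum response factor (SRF) pathway and the actin cytoskeleton: Srf, its coactivator genes Mkl1 and Mkl2, the actin genes Acta2, Actb and Actg1, the actin-binding and contractile genes Tagln, Cnn1 and Myl9, and the adhesion gene Vcl. These are 10 of the 22350 protein-coding genes of the annotation. The peaks described are those listed from 50 kb upstream of each gene's start to 50 kb past its end in mm9, which were 62 of 25775 WT peaks and 11 of 3836 Tet2 KO peaks. No pair of windows overlapped, so each peak was counted for 1 member. A window can also hold peaks of other genes. For 34 of the 62 WT and 8 of the 11 Tet2 KO peaks the nearest protein-coding gene start was that of the member. ATAC-seq, in which the transposase Tn5 inserts sequencing adapters into open DNA, was run on primary myoblasts from 2 WT and 2 Tet2 KO samples, with 5000 cells per library. All samples were C57BL/6 mice, and the cells were satellite cells sorted from hindlimb muscle (positive for CD34 and Integrin a7, negative for CD45, CD11b, CD31, Sca1 and the dead-cell dye PI) and grown for 3 days, when they were MyoD+. The Tet2 KO mice lacked exon 3 of Tet2 in every tissue, so the deletion was not limited to muscle. By the study's methods the mice were young adult males unless stated otherwise, and the labels do not say whether samples were pooled.

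What was analysed is 1 peak list per genotype, each carrying the name of a single library. There is no replicate of a list, so WT and Tet2 KO could not be tested against each other. Shares have Wilson 95% intervals, which speak for counting error alone. A peak is a stretch where fragments pile up over the local background. Its fold enrichment is the pileup at the summit over that background, with 1 added to both. The numbers of fragments at the summit and in its background were worked back from its fold and its -log10 p. The genome-wide background was 0.649 fragments for WT and 1.38 for Tet2 KO. Since fold is taken over each library's own local background, it is not on a common scale between the lists. Both lists also skip peak numbers (9707 in WT and 4403 in Tet2 KO), so some called peaks are not listed. These are bulk samples, in which fewer open cells and less access per cell cannot be told apart. In a window of the same kind around Tet2, 4 WT and 0 Tet2 KO peaks were listed, but a peak list does not show the deletion itself and so does not check the genotype. Among 7 myoblast marker genes, Myod1, Des and Chrna1 had a promoter peak in both lists, and Myf5, Cdh15, Itga7 and Pax7 had none in either. Promoter peaks were listed at 0 of 3 fibroblast and 0 of 3 blood marker genes, while of 3 endothelial genes Pecam1, which encodes the CD31 used in the sort, had one in WT only. Of 4 smooth muscle genes, Des had a promoter peak in both lists and Smtn in WT, while Myh11 and Lmod1 had none. Across all protein-coding genes a promoter peak was listed at 30.3% in WT and 7.92% in Tet2 KO, so counts this small do not tell cell types apart. Of the fibroblast and blood genes, Thy1, Itgam and Cd68 had a peak within their windows in both lists, Ptprc in WT only, and Pdgfra and Dcn in neither. What part these cell types had in the results below was not tested.

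SRF binds the CArG box, a sequence of 2 C, 6 A or T and 2 G, in the control regions of actin, contractile and growth-response genes. Its coactivators, the myocardin-related factors encoded by Mkl1 and Mkl2, are held in the cytoplasm by monomeric actin and enter the nucleus when actin polymerises, so that actin dynamics feed back on actin genes. In muscle precursors the pathway is known for its part in skeletal actin expression, growth and differentiation.

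The sequences that carry these sites are shown first, 5′ to 3′ on the strand of the gene, from the NCBIM37 (mm9) genome. Srf and Vcl are the members with a CArG box under a promoter peak of both lists, and their 300 bases upstream of the start are given with the boxes in capitals. The Srf stretch lies at chr17:46693112-46693411, minus strand, and the Vcl stretch at chr14:21748355-21748654, plus strand.
Srf upstream: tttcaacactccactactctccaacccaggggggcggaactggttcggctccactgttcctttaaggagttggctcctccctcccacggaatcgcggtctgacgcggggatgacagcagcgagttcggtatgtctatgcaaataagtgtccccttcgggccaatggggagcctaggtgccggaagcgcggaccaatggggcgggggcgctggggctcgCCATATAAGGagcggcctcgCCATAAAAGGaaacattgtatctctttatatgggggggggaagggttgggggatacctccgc
Vcl upstream: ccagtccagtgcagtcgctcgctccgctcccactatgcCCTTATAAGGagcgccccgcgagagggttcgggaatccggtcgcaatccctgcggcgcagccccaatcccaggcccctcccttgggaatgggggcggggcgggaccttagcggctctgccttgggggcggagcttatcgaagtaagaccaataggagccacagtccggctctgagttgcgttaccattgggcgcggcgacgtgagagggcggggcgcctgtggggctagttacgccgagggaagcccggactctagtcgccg
Srf had 2 boxes, from -82 to -73 and from -62 to -53 bp, and Vcl had 1, from -262 to -253 bp. Acta2 is shown because its promoter had a peak in both lists but no exact box. Its capitals mark 2 stretches that differ from a box by 1 letter within the 6, from -121 to -112 and from -71 to -62 bp, at chr19:34329827-34330126, minus strand.
Acta2 upstream: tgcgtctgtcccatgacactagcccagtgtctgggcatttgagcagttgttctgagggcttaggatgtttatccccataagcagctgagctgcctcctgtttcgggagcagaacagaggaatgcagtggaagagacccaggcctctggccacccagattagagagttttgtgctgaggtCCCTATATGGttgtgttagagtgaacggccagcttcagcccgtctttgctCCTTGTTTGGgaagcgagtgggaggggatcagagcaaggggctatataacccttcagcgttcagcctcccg

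Actb, Actg1, Tagln and Myl9 also had a CArG box upstream, but no peak was listed over it in either genotype. Each box is shown in capitals with 10 bases on either side.
Actb box: ccgaaagttgCCTTTTATGGctcgagtggc
Actg1 box: ggaaagatcgCCATATATGGacatgttctg
Tagln box: agggtcctgcCCATAAAAGGtttttcccgg
Myl9 box: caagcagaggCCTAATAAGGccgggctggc
The Actb box lies at chr5:143668457-143668466 (minus strand, -33 to -24 bp), the Actg1 box at chr11:120209890-120209899 (minus strand, -43 to -34 bp), the Tagln box at chr9:45744244-45744253 (minus strand, -112 to -103 bp) and the Myl9 box at chr2:156601039-156601048 (plus strand, -117 to -108 bp). The remaining boxes in peaks lay in a Srf intron, at chr17:46690302-46690311 (minus strand), and 37.3 kb upstream of Vcl, at chr14:21711305-21711314 (plus strand). Both are shown since their WT peaks had no Tet2 KO peak.
Srf intron box: gcctccgtgcCCATATAAGGccggttcggg
Vcl distal box: acacattctcCCATATTTGGgagtaagccg
The intron box of Srf has the same 10 letters as the first of its upstream boxes.

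An exact CArG box was thus found within 300 bp upstream of 6 of the 10 members (7 boxes), against 363 of the 22350 protein-coding genes (1.62%). With 1 mismatch allowed within the 6, these were 8 of 10 and 2267 genes (10.1%), Mkl1 and Acta2 being the genes added. The 10 genes were chosen as SRF pathway genes, many of them known targets, so this count is a description and not independent evidence. Mkl2 and Cnn1 had no box of either kind in this stretch. Of the 62 WT peaks, 4 held an exact box (6.45%, interval 2.54 to 15.4%), where 1.45% of all WT peaks did. They were the promoter and intron peaks of Srf and the promoter and distal peaks of Vcl. Of the 11 Tet2 KO peaks, 2 held one (18.2%, interval 5.14 to 47.7%), both at promoters, against 1.41% of all Tet2 KO peaks. The letters were searched on both strands, and a match is not evidence of SRF binding.

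**Figure D1:**
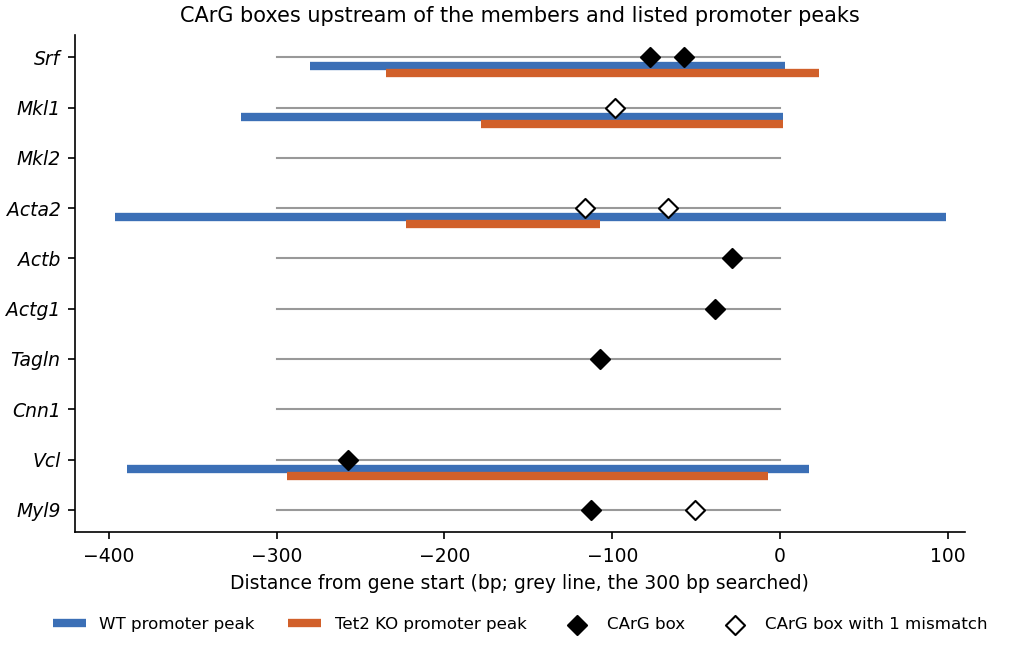
CArG boxes (filled diamonds) and boxes with 1 mismatch (open diamonds) in the 300 bp upstream of each member, by distance from the gene start in bp, with the extent of the WT (blue) and Tet2 KO (orange) promoter peaks near the start. Exact boxes lie upstream of 6 genes, and a listed peak of both genotypes covers them at Srf and Vcl.

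The AP-1 site TGANTCA, bound by Fos and Jun proteins, was found in 14 of the 62 WT peaks (22.6%, interval 14 to 34.4%), against 36.1% of all WT peaks. The E box CAGCTG, a sequence bound by MyoD, was found in 17 (27.4%, interval 17.9 to 39.6%), against 36%. Both motifs are palindromic or nearly so, and they share no fixed overlap with the CArG box. Among intron and intergenic peaks 13 of 42 had the AP-1 site (31.0%, interval 19.1 to 46.0%, against 47.1%) and 13 of 42 the E box (31.0%, interval 19.1 to 46.0%, against 42.6%). None of the 17 promoter peaks had the AP-1 site (interval 0 to 18.4%), where 8.87% of all WT promoter peaks did, a value within that interval. None of the members had the AP-1 site within 300 bp upstream, as against 7.12% of all genes, and 2 of 10 had the E box, as against 13.7%. No intervals were computed for these counts of 10 genes.

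In WT the number of listed peaks per window ran from 2 at Tagln and Myl9, through 4 at Acta2, 5 at each of Srf, Actb and Cnn1, 6 at Actg1, 9 at Mkl2 and 10 at Vcl, to 14 at Mkl1. The windows differ in length with their genes, so density is the fairer measure. It was 1.88 peaks per 100 kb at Tagln and Myl9 and 5.83 at Actg1, with a median of 4.55, where the median over all protein-coding genes was 1.6 (quartiles 0 and 2.98). In Tet2 KO the count was 3 at Mkl1, 2 at Cnn1, 0 at Mkl2 and Tagln and 1 at each other gene. The median density was then 0.928 peaks per 100 kb, against 0 over all genes (quartiles 0 and 0.699). At least 1 Tet2 KO peak lay in the windows of 8 of 10 genes (80%, interval 49.0 to 94.3%), against 31.4% of all protein-coding genes. By position, 17 of the WT peaks lay at promoters, 24 in introns, 18 in intergenic sequence, 1 in a coding exon and 2 in untranslated or noncoding exons. The promoter share of 27.4% (interval 17.9 to 39.6%) was near the 27.3% of all WT peaks.

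**Figure D2:**
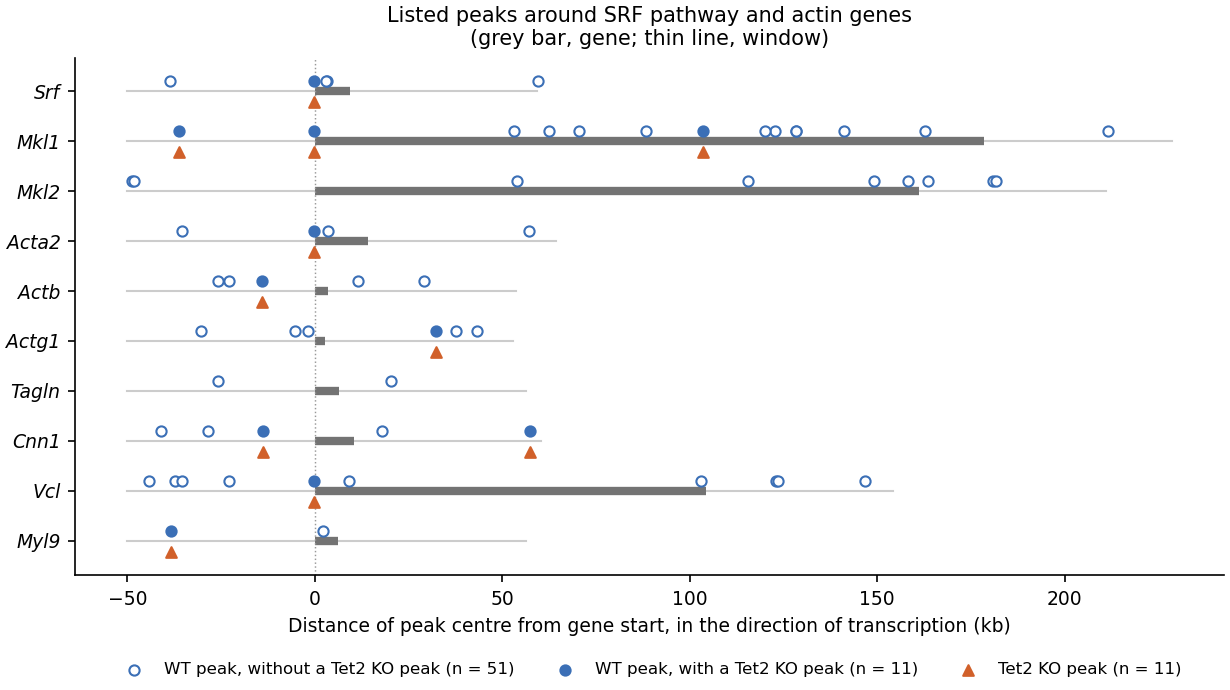
Position of each listed peak relative to the start of its gene, in kb along the direction of transcription, for the 10 members (grey bar, gene; thin line, window). Open circles are the 51 WT peaks without a Tet2 KO peak, filled circles the 11 with one, and triangles the 11 Tet2 KO peaks, which all lie over a WT peak.

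Of the 62 WT peaks, 11 shared at least 1 bp with a Tet2 KO peak (17.7%, interval 10.2 to 29.0%), where 14.1% of all WT peaks had one. The interval of the members contains the value of the whole list. Every Tet2 KO peak in these windows, 11 of 11, lay over a WT peak, as did 96.8% of all Tet2 KO peaks. Promoter peaks of any gene in the windows had a Tet2 KO peak in 6 of 17 cases (35.3%, interval 17.3 to 58.7%, against 22.5% of WT promoter peaks genome-wide). Intron and intergenic peaks had one in 5 of 42 cases (11.9%, interval 5.19 to 25%, against 11.0%). For promoters and for distal peaks, too, the interval contained the genome-wide share, so no difference from the rest of the list was detectable at this number of peaks. The 17 promoter peaks include those of neighbouring genes. Counted by gene at the members' own promoters, 4 of 5 with a WT promoter peak also had one in Tet2 KO (80%, interval 37.6 to 96.4%). The share of all such genes was 25.8%.

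The retained peaks were among the stronger WT peaks. With all WT peaks ranked by fold enrichment into 5 equal groups, a Tet2 KO peak was found for 0 of 11 member peaks in the weakest group (1.75% of all WT peaks of that group), 1 of 11 in the second (3.34%) and 0 of 17 in the third (7.33%). It was found for 7 of 15 in the fourth (46.7%, interval 24.8 to 69.9%, against 16.1%) and 3 of 8 in the strongest (37.5%, interval 13.7 to 69.4%, against 41.9%). The share in the fourth group is the one whose interval does not contain the value of the whole list, and it is 1 of the 5 groups compared. The WT peaks with a Tet2 KO peak had a median fold of 10 (7.27 to 17.2, n = 11) and the others 7.84 (4.49 to 13, n = 51), so the ranges overlapped. Both medians stood near those of the same classes over the genome, 11.0 and 7.57.

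**Figure D3:**
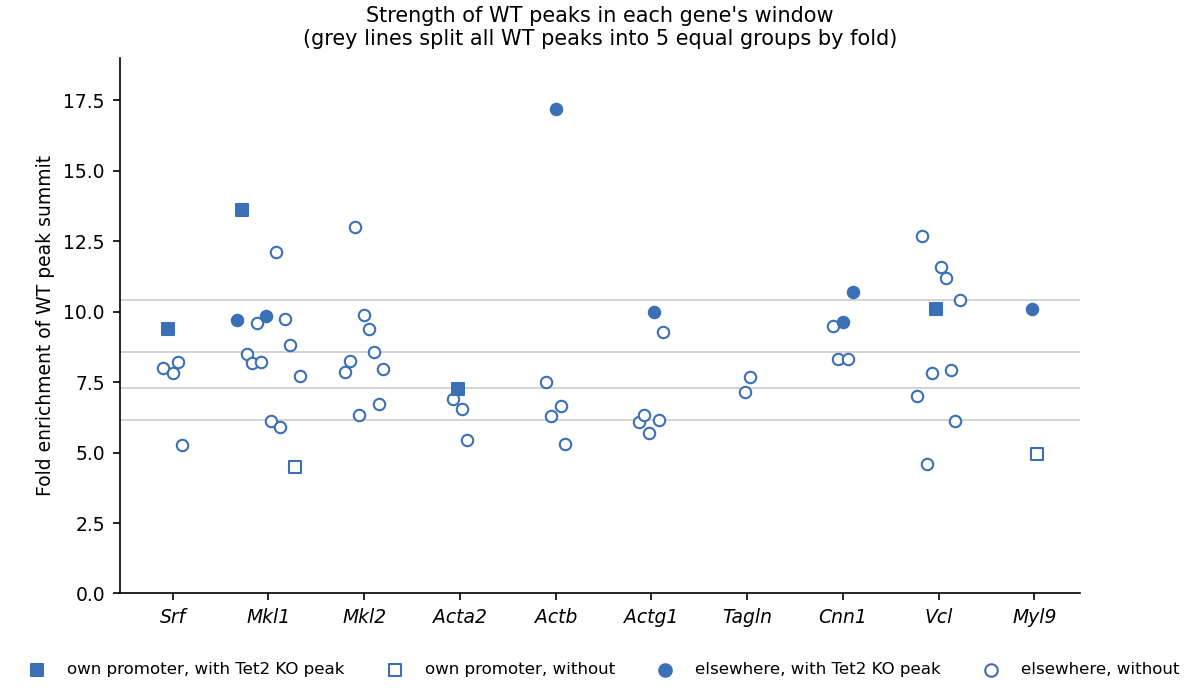
Fold enrichment of each of the 62 WT peaks by gene (squares, the gene's own promoters; circles, elsewhere), filled where a Tet2 KO peak overlaps. Grey lines split all WT peaks into 5 equal groups at 6.15, 7.28, 8.57 and 10.4, and 10 of the 11 filled points lie above 8.57, the exception being the Acta2 promoter.

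Srf encodes the transcription factor itself and carried 5 WT peaks and 1 Tet2 KO peak. Its promoter peak was shared: the WT peak (chr17:46693108-46693391) had 37 fragments at the summit and a fold of 9.38, and the Tet2 KO peak (chr17:46693088-46693346) had 22 fragments and a fold of 6.16. Each peak covered both CArG boxes. Within its own list the peak ranked alike, above 70.1% of WT peaks and above 65.1% of Tet2 KO peaks by fold. A pair of WT peaks lay in introns, 3.2 kb into the gene with 33 fragments and a fold of 8.21, and 2.9 kb in with 31 fragments and a fold of 7.84, the latter over the intron CArG box. Neither had a Tet2 KO peak, though their fragments came near those of the promoter. A WT peak 38.6 kb upstream, in an intron of a neighbouring gene, had a fold of 8, and the weakest, with 5.26, lay at the promoter of BC048355 past the end of Srf. Between the Srf promoter peak and the nearest listed Tet2 KO peak on the side of the gene body the list skips 2 numbers in 282 kb, so a called but unlisted peak in the introns cannot be told from none.

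Mkl1, which encodes the coactivator MRTF-A, had the most peaks of the members, 14 in WT and 3 in Tet2 KO. Its promoter peak was the strongest promoter peak of the set in both lists. In WT (chr15:81021185-81021508) it had 37 fragments and a fold of 13.6, above 96.5% of WT peaks, and in Tet2 KO (chr15:81021185-81021365) 24 fragments and a fold of 8.07, above 92.8%. It lay between Mkl1 and the divergent transcript 4930483J18Rik, so the peak belongs to both starts. A weak WT peak at an internal start of Mkl1, 162.9 kb into the gene, had 7 fragments and a fold of 4.49, with no Tet2 KO peak. Apart from the internal start, 10 WT peaks lay within the introns. The strongest of these, 122.7 kb in, had 24 fragments and a fold of 12.1 and no Tet2 KO peak. The intron peak that was shared, 103.6 kb in (chr15:80917316-80917784), had 23 fragments and a fold of 9.84 in WT and 14 fragments and a fold of 5.63 in Tet2 KO. The intergenic peak 36.3 kb upstream (chr15:81057269-81057776) had 22 fragments and a fold of 9.70 in WT, and 13 fragments and a fold of 5.02 in Tet2 KO. Thus 3 of 14 WT peaks at Mkl1 were listed in Tet2 KO, and the strongest intron peak was not among them.

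Mkl2, which encodes the related coactivator MRTF-B, had 9 WT peaks and no Tet2 KO peak. No peak was listed at its own start in either genotype. The WT list skips 0 numbers in the 102 kb between the listed peaks around that start, so no WT peak was called there, while the Tet2 KO list skips 3 in 658 kb, a stretch that takes in all 9 WT peaks. The strongest WT peak lay in an intron 54 kb into the gene (chr16:13310465-13310663), with 23 fragments and a fold of 13, above 94.8% of WT peaks. By fold it was the strongest of the 51 WT peaks without a Tet2 KO peak. Others of the 51 had more fragments, among them the peak 37.3 kb upstream of Vcl with 31 and a fold of 12.7. The next peaks of the Mkl2 window had a fold of 9.88, 149.1 kb in at the start of Gm15738, and a fold of 9.38, 158.3 kb in within an untranslated or noncoding exon. By fold this peak came near the Mkl1 promoter peak, and only the latter was listed in Tet2 KO. The 2 were not alike in fragments, with 23 over a local background of 0.840 at Mkl2 and 37 over 1.79 at Mkl1.

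Acta2 encodes smooth muscle alpha-actin, which is also made by cultured myoblasts. It had 4 WT peaks and 1 Tet2 KO peak. The promoter peak was shared and was the weakest of the shared sites by fold in WT, with 24 fragments over a local background of 2.44 and a fold of 7.27 (chr19:34329727-34330222). In Tet2 KO (chr19:34329933-34330049) it had 13 fragments and a fold of 5.19. Its rank was nearly the same in both lists, above 38.6% of WT and 37.0% of Tet2 KO peaks. The WT peak ran from -396 to 99 bp and covered both near-matches to a CArG box, whereas the narrower Tet2 KO peak, from -223 to -107 bp, covered the first. The WT peak at the Fas promoter, 35.3 kb upstream of Acta2, had a fold of 6.91, and a WT peak in an Acta2 intron, 3.4 kb into the gene, had 23 fragments and a fold of 6.56. Neither had a Tet2 KO peak.

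Actb encodes beta-actin, the main cytoplasmic actin. No peak was listed at its promoter in either genotype. The strongest of all 62 WT peaks lay 14.2 kb upstream of Actb in intergenic sequence (chr5:143682458-143682798), with 50 fragments over a background of 1.97 and a fold of 17.2, above 99.7% of WT peaks. Its Tet2 KO counterpart (chr5:143682484-143682795) had 24 fragments over 2.23 and a fold of 7.75, above 90.6%. The 300 bases around this summit (chr5:143682468-143682767, minus strand) hold no CArG box and 1 AP-1 site, given in capitals.
Actb distal site: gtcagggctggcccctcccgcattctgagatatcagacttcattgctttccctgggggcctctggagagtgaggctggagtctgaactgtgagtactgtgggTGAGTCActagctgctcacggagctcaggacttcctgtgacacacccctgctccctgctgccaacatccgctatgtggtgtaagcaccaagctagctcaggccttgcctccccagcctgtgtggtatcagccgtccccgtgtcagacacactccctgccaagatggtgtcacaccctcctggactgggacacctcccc
The next WT peaks of the window, 25.7 kb upstream with a fold of 7.49 and at the Fbxl18 promoter with 6.64, had no Tet2 KO peak. The WT list skips 1 number in the 25.5 kb between the Fbxl18 and distal peaks, which include the Actb promoter, and the Tet2 KO list skips 0 in the 97.1 kb around it. No Tet2 KO peak was therefore called at the Actb promoter, and whether one was called there in WT cannot be told.

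Actg1 encodes gamma-actin, the other cytoplasmic actin. It had 6 WT peaks and 1 Tet2 KO peak, all away from its promoter. The shared peak lay in intergenic sequence 32.3 kb from the start, past the end of the gene (chr11:120177330-120177690), with 24 fragments and a fold of 10 in WT and 16 fragments and a fold of 5.87 in Tet2 KO. A second peak on that side, 43.3 kb from the start, had a fold of 9.29 in WT and no Tet2 KO peak. The Tet2 KO list skips 0 numbers in the 46.3 kb that hold it, so none was called. On the upstream side the WT peaks were weaker, with folds of 5.68 at 1.8 kb, 6.34 at 5.3 kb and 6.09 at the 2310003H01Rik promoter 30.3 kb away. Around the Actg1 start the WT list skips 1 number in 33.8 kb and the Tet2 KO list skips 3 in 151 kb. A called but unlisted peak at the Actg1 promoter therefore cannot be told from none in either genotype. Among listed peaks, the shared one lay at a distance for both cytoplasmic actin genes and at the promoter for Acta2.

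Tagln, which encodes the smooth muscle protein transgelin, had 2 WT peaks and no Tet2 KO peak. The WT peaks had folds of 7.69 at 20.2 kb past the start, beyond the gene in an intron of a neighbour, and 7.14 at 25.9 kb upstream, with 13 and 11 fragments. Each held an AP-1 site. The WT list skips 2 numbers between them, in 46.0 kb that include the promoter and its CArG box.

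Cnn1 encodes calponin, which binds actin and tropomyosin. Its own promoter had no listed peak, and neither list skips a number there, in 31.5 kb of the WT and 71.2 kb of the Tet2 KO list, so no peak was called at Cnn1 in either library. Instead 4 of the 5 WT peaks of its window lay at promoters of neighbours, Gm16845, Ecsit, Elof1 and Pigyl. Those of Ecsit, a gene of innate immune signalling, and Pigyl were shared. At Ecsit (chr9:21889853-21890012) the WT peak had 22 fragments and a fold of 9.62 and the Tet2 KO peak 11 fragments and a fold of 4.69. At Pigyl (chr9:21961077-21961348) they had 21 fragments and a fold of 10.7, and 13 fragments and a fold of 5.38. The remaining WT peak, in a coding exon 40.9 kb upstream, had a fold of 9.50. The 2 Tet2 KO peaks of this window therefore lay at other genes' promoters and are not peaks of Cnn1.

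Myl9 encodes a regulatory myosin light chain of non-muscle and smooth muscle cells. Of its 2 WT peaks, the one at an internal start 2.2 kb into the gene was among the weakest of the set, with 12 fragments and a fold of 4.94, and had no Tet2 KO peak. The shared peak lay 38.3 kb upstream in an intron (chr2:156562706-156562946). It had 24 fragments and a fold of 10.1 in WT, above 77.1% of WT peaks, and 14 fragments and a fold of 4.81 in Tet2 KO, above 24.1%. That is the widest gap in rank between the lists among the shared sites.

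Vcl encodes vinculin, which links integrin adhesions to actin filaments, and had 10 WT peaks and 1 Tet2 KO peak. The promoter peak over the CArG box was the shared one. In WT (chr14:21748266-21748672) it had 26 fragments and a fold of 10.1, above 77.1% of WT peaks, and in Tet2 KO (chr14:21748361-21748648) 18 fragments and a fold of 6.78, above 79.4%. It was the single shared site that ranked higher in the Tet2 KO list than in the WT list. In WT 4 peaks away from the promoter had a higher fold than it. They were the peak with a CArG box 37.3 kb upstream (chr14:21711123-21711507; 31 fragments, fold 12.7), a peak 9.2 kb into the gene (20 fragments, fold 11.6), one in an untranslated or noncoding exon near its end (19 fragments, fold 11.2) and one in an intron of a neighbour, 146.6 kb from the start (21 fragments, fold 10.4). None of these had a listed Tet2 KO peak, although the Tet2 KO list skips 4 numbers in the 383 kb around the first and 1 in the 571 kb around the others. The WT peaks at the promoters of Adk and Ap3m1, past the end of Vcl, had folds of 7.93 and 6.11 and no Tet2 KO peak.

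Across the 11 shared sites the summit held 21 to 50 fragments in WT and 11 to 24 in Tet2 KO. The WT summit was higher at 11 of 11, by 1.44 to 2.08 times with a median of 1.68. Over all 3722 overlapping pairs of the lists the WT summit was higher in 96.2%, with a median ratio of 1.81, so the members followed the lists as a whole. The order was the reverse of the genome-wide background, which was 2.13 times higher in Tet2 KO. At 9 of the 11 sites the local background was also higher in Tet2 KO, the Srf and Acta2 promoters being the others. The summits lay a median of 35 bp apart, with 7 of 11 within 50 bp and the largest shift, 180 bp, at the Vcl promoter. Fragments were not scaled for depth. Read totals are unknown, and the genome-wide background of each list is the only measure of coverage at hand. Fragments, like fold, are thus not on a common scale between the lists. With 1 library per genotype these ratios have no replicate check.

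**Figure D4:**
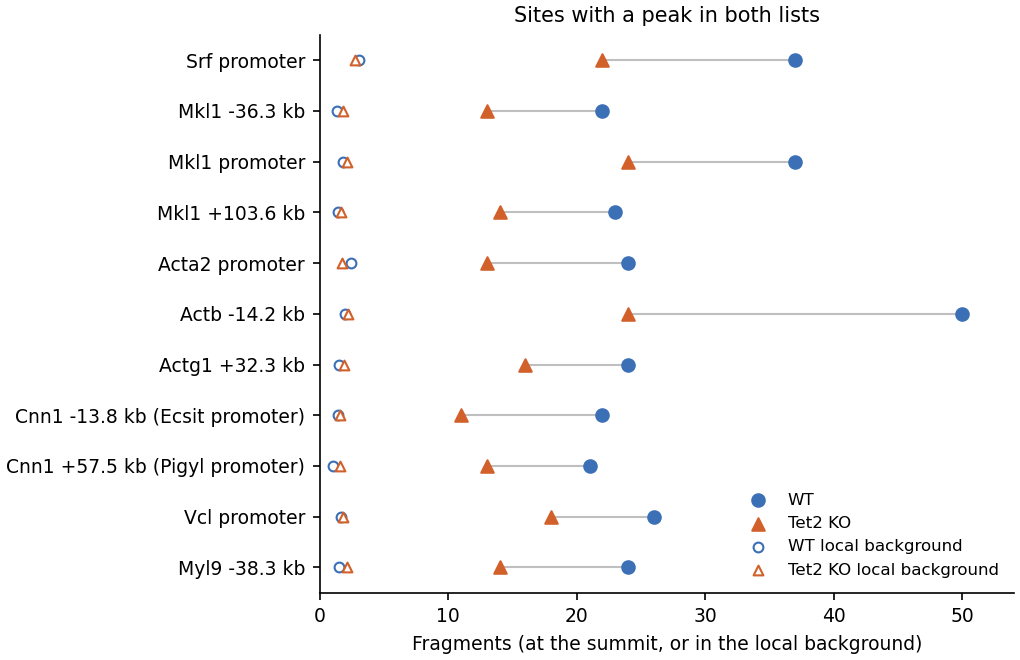
Fragments at the summit (filled) and in the local background (open) of the 11 sites with a peak in both lists, WT in blue circles and Tet2 KO in orange triangles, 1 library each, labelled by gene and by promoter or distance from the gene start in kb. The WT summit lies to the right of the Tet2 KO summit at every site, and is farthest, 50 against 24 fragments, at the site upstream of Actb.

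The absence of a listed Tet2 KO peak has a limit that differs among the 51 remaining WT peaks. For 10 of them the Tet2 KO list skips no number in the stretch between its neighbouring peaks, so no Tet2 KO peak was called. These were 4 at Actb, 3 at Cnn1, 2 at Actg1 and the one 38.6 kb upstream of Srf. For the other 41 between 1 and 8 numbers were skipped. The lists have a further limit: the smallest listed summit had 7 fragments in Tet2 KO and 6 in WT, and smaller summits are not in the lists. The genome-wide background was 2.13 times higher in Tet2 KO, so a given fold over it takes more fragments there.

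A promoter peak, from 1000 bp upstream to 100 bp downstream of a start, was listed in WT at 5 of the 10 members (50%, interval 23.7 to 76.3%), against 30.3% of all protein-coding genes. In Tet2 KO it was listed at 4 (40%, interval 16.8 to 68.7%), against 7.92%. The 4 were Srf, Mkl1, Acta2 and Vcl, and Myl9 had one in WT alone, at its internal start. Of the genes with a WT promoter peak, 4 of 5 members also had one in Tet2 KO (80%, interval 37.6 to 96.4%), where 25.8% of all such genes did. With a -log10 q of 10 or more in both lists, promoter peaks remained listed at 4 members in WT and at 1 in Tet2 KO. That limit kept 14060 of the 25775 WT peaks and 508 of the 3836 Tet2 KO peaks genome-wide. The share of all protein-coding genes at that limit was not computed, so these counts have no background.

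The rest of the pathway was described from a list of 58 further genes (60 names, of which Diaph1 and Diaph3 were found under Diap1 and Diap3). A WT promoter peak was listed at 35 of them (60.3%, interval 47.5 to 71.9%) and a Tet2 KO promoter peak at 14 (24.1%, interval 15.0 to 36.5%), and all 14 also had a WT promoter peak. Both shares lay above those of all protein-coding genes given above. An exact CArG box lay within 300 bp upstream of 8 of the 58 (13.8%), where 1.62% of all protein-coding genes had one. A WT promoter peak with a box was listed at 5 of the 35 genes, and 1.23% of all WT promoter peaks held a box. These genes, too, were chosen as pathway genes, some of them as SRF targets, so both counts are descriptions and not independent evidence.

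Among 13 genes of upstream signalling, 9 had a WT and 2 a Tet2 KO promoter peak. The 2 were Limk1, the kinase that inactivates cofilin, with 31 and 19 fragments, and Scai, a repressor of the MRTF coactivators, with 39 and 24 fragments and folds of 14.7 and 9.09. Scai ranked above 98.3% of WT and 96.9% of Tet2 KO peaks. Rhoa, Rock1, Rock2, Limk2, Diap1, Diap3 and Cfl1 had a WT promoter peak alone, with folds from 4.79 at Cfl1 to 11.7 at Diap3. Of 5 partners of SRF, Elk1, a ternary complex factor, had a promoter peak in both lists, with 19 and 12 fragments, and Myocd, the gene for myocardin, in WT alone with 15. Of 11 early SRF targets, 5 had a WT promoter peak and 1, Egr1, a Tet2 KO promoter peak, with 31 and 17 fragments and folds of 7.88 and 4.42. Egr2, Fos, Nr4a1 and Mcl1 had one in WT alone. The WT promoter peaks of Egr1, Egr2 and Fos held a CArG box.

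The 29 cytoskeletal genes had the most Tet2 KO promoter peaks, 10 against 19 in WT. They were at Actn1, Cnn3, Zyx, Myl6, Myh9, Myh10, Tpm3, Pdlim7, Wdr1 and Itgb1. The largest summits were those of Zyx, whose product zyxin sits at focal adhesions and stress fibres, with 52 fragments in WT and 33 in Tet2 KO. Myh9, which encodes the heavy chain of non-muscle myosin, had 34 and 22 fragments and a CArG box under the WT peak, and the related Myh10 had 27 and 17. Tpm3, a tropomyosin gene, had 31 and 17 fragments, and Actn1, an actin crosslinker, 29 and 16. Cnn3, another calponin, had 18 fragments in WT and 19 in Tet2 KO, the highest Tet2 KO value relative to WT among these genes, and ranked above 38.2% of WT and 82.3% of Tet2 KO peaks. The strongest promoter peaks of Pdlim7 had 26 and 16 and did not overlap, and Myl6, Wdr1 and Itgb1 had 22, 24 and 22 fragments in WT and 16, 13 and 12 in Tet2 KO. The striated muscle actin genes Acta1 and Actc1 had no promoter peak in either list. The share of 34.5% in Tet2 KO (interval 19.9 to 52.7%) overlapped those of signalling (15.4%, interval 4.33 to 42.2%), SRF partners (20%, interval 3.62 to 62.4%) and early targets (9.09%, interval 1.62 to 37.7%), so the groups could not be ordered.

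**Figure D5:**
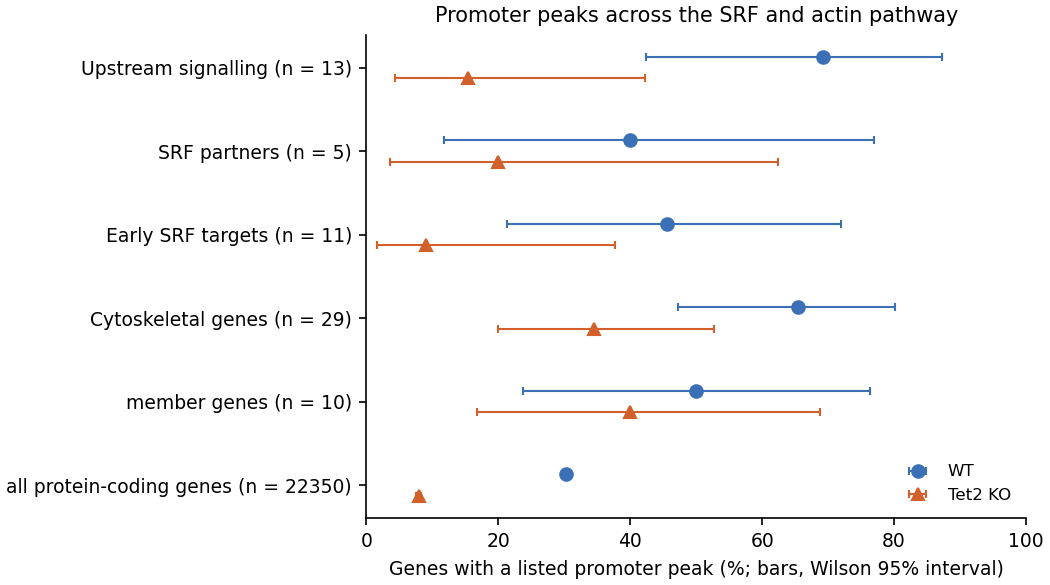
Share of genes with a listed promoter peak, in percent with Wilson 95% intervals, in WT (blue circles) and Tet2 KO (orange triangles) for the 4 groups of pathway genes, the 10 members and all 22350 protein-coding genes. The WT shares run from 40% to 69.2% and the Tet2 KO shares from 9.09% to 40% in the gene groups, and the intervals of the groups overlap one another within each list.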

How the data were processed

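ATAC-seq of primary myoblasts (2 WT and 2 Tet2 KO samples) was represented by 1 deposited peak list per genotype. By the methods, the authors trimmed reads, aligned them to mm9 with Bowtie2, filtered them by mapping quality, removed duplicates with Picard and called peaks per sample with MACS2. The deposited fold enrichment is a ratio of summit pileup to local background within the same library, each with a pseudocount of 1. The deposited -log10 p-value and -log10 q-value are those of MACS2 at the summit, and the smallest -log10 q is 2.18 in WT and 0.863 in Tet2 KO, so the cutoffs differed. The score column was not used. The lists carry no read totals, so total depth is unknown, and the genome-wide background of each list is the only measure of coverage.

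Fragments per summit and background were solved from the Poisson model of the caller, for all 25775 WT and 3836 Tet2 KO peaks (tolerance 0.001), and the calculation was tested on simulated data. Gene starts came from GENCODE M1 and sequence from NCBIM37. Overlap meant at least 1 bp, and features were assigned at the peak centre. The members, gene lists and motifs were chosen with earlier results of these data known. The genes named were the 10 members with each promoter peak, the 3 WT peaks of highest fold and each Tet2 KO peak, neighbouring genes with a promoter peak in a window, and pathway genes with a Tet2 KO promoter peak. Genes, peaks and CArG boxes named beyond this were chosen after their values were seen. Alternatives changed the limits on -log10 q and fold, the windows, the promoter, the overlap rule and the motif. Python 3.11.15, numpy 2.4.6, pandas 2.3.3 and scipy 1.17.1 were used. Promoter sequences of another build were not used.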

Additional observations from a re-analysis of the deposited data

How the results depend on the processing

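No paired analysis was possible because there is a single list of peaks for each genotype, and no replicate could be left out. In the windows, the 62 WT peaks became 40 at a -log10 q of 10 or more, 27 from 10 kb upstream to the gene end, and 34 by nearest start only. The 11 Tet2 KO peaks became 6 at a -log10 q of 5 or more, 2 at 10 or more, 5 from 10 kb upstream to the gene end, and 20 in windows of 100 kb. At a -log10 q of 10 or more, 5% of WT peaks had a Tet2 KO peak (3.41% of all WT peaks), 1 member and 2 pathway genes had a Tet2 KO promoter peak, and 23 pathway genes a WT one. At 5 or more, 8 pathway genes had a Tet2 KO promoter peak. The share of all protein-coding genes with a promoter peak was not computed at either limit, so these gene counts have no background. Allowing 1 mismatch in the CArG box gave 17.7% of the WT peaks, against 7.67% of all. The narrower and wider windows and the limits hold fewer or more listed peaks by construction. Over the whole lists, a -log10 q of 10 or more kept 14060 of 25775 WT peaks and 508 of 3836 Tet2 KO peaks. The larger fall in Tet2 KO under that limit was thus shared by the lists as a whole, and why it occurred was not tested. The other alternatives kept counts within 1.5 times and shares within the interval. The lists hold called peaks only, so signal under the cutoff is not described.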
